A study of Drosophila melanogaster with 2 samples.

Results

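The 8 homeotic (Hox) genes of *Drosophila melanogaster* lie in 2 complexes on chromosome arm 3R, and binding of the transcription factor Lola was described across both. The genes were taken by name, as lab, pb, Dfd, Scr and Antp of the Antennapedia complex and Ubx, abd-A and Abd-B of the bithorax complex, and are 8 of the 13945 protein-coding genes placed. The DNA of each complex was taken out to the next protein-coding gene on either side. It held 54 of the 6154 summits in the list thresholded by IDR (irreproducible discovery rate, a limit set by how well peak ranks repeat between replicates). Of these, 32 lay in the Antennapedia complex and 22 in the bithorax complex.

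Chromatin immunoprecipitation and sequencing had been done on whole embryos 0 to 12 h old, males and females pooled. The embryos came from a transgenic line, lola-J-GFP, that stably expresses the J form of Lola (Lola-RJ in the labels) with GFP at its C terminus. GFP was the target of the antibody according to the description, while the antibody label reads lola. The 2 samples, biological replicates 1 and 3, share genotype, stage and treatment and form 1 group, so no comparison between conditions was possible and no p-value was computed. A whole embryo mixes segments in which a given Hox gene is on with segments in which it is off, and a peak does not say in which cells the DNA was bound. If GFP was the target, the antibody was directed at the tagged J form and not at other forms of Lola. Whether the level of the tagged protein matched that of the untagged protein is not given in the sources used here.

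Hox genes encode homeodomain transcription factors that give segments their identity along the head-to-tail axis. Their small coding parts sit in long stretches of regulatory DNA, in introns and between genes, which Polycomb and trithorax proteins keep off or on. In the bithorax complex the bithoraxoid (bxd) DNA upstream of Ubx serves Ubx, and the infra-abdominal (iab) DNA between abd-A and Abd-B serves those genes segment by segment. Lola, a BTB-domain protein made in many forms with unlike zinc-finger ends, is known for axon guidance. The limits of the regulatory domains are not in the annotation used here, so summits were placed by gene, intron, start site (TSS), the tract between neighbouring Hox genes and annotated non-coding transcripts.

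The DNA under the summits on which the description turns is shown first, the summit base with 50 bases on each side, read on the plus strand of dm6. The first 4 are the strongest summits at Ama (the strongest in either complex), in Antp, in Abd-B and in the tract from Scr to Antp. The next 2 are the strongest in the bxd transcript and in the tract from abd-A to Abd-B. The last 2 are the summits nearest to a TSS of Dfd and of Antp. Capitals mark matches, on either strand, to GAGAG (the core bound by GAGA factor), GCCAT (Pho), TGAGTG (Zeste) or a run of at least 7 A (AAAAAAA).
Ama, chr3R:6763024-6763124: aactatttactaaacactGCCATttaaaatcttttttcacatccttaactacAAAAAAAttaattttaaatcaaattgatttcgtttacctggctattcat
Antp intron 6, chr3R:6903380-6903480: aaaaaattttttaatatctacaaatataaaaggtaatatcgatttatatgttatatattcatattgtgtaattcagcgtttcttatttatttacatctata
Abd-B intron 1, chr3R:16958218-16958318: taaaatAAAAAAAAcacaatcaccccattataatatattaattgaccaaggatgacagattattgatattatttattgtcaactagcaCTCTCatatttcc
Scr to Antp, chr3R:6881740-6881840: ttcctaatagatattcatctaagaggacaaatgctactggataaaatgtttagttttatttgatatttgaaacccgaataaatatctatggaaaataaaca
bxd transcript, chr3R:16771738-16771838: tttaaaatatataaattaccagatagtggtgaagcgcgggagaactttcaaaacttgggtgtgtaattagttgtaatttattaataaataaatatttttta
abd-A to Abd-B, chr3R:16837969-16838069: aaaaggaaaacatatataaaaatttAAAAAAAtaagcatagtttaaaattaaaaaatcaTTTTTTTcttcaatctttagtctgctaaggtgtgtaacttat
Dfd upstream, chr3R:6791329-6791429: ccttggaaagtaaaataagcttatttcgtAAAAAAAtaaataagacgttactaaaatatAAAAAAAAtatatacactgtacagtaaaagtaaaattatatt
Antp upstream, chr3R:6933157-6933257: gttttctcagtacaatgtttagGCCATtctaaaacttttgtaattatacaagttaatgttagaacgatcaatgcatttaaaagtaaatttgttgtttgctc
Of the 54 windows, GAGAG was found in 5 (9.26%, against 7.3% of all IDR summits), GCCAT in 7 (12.96%, against 11.54%) and TGAGTG in 2 (3.7%, against 3.1%). A run of A was found in 7 (12.96%, against 14.22%), and none of the 4 patterns holds another, though matches may share bases at their ends. These shares were within 2 percentage points of those over all IDR summits. The windows were rich in A and T, with a median of 72.3% (range 46.5% to 83.2%) against 71.3% over all IDR summits.

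Summits lay more densely in both complexes than over the arms as a whole. The value for the arms divides by their full sequence length, with no allowance made for DNA where reads map poorly. The Antennapedia complex, chr3R:6660101-7052334 from agt to Sodh1 (392.23 kb), held 8.16 IDR summits per 100 kb, and the bithorax complex, chr3R:16655663-16975203 from modSP to VhaM9.7-d (319.54 kb), held 6.88, against 4.60 over the 6 arms. The replicates taken singly, each cut to its 6154 strongest peaks, gave 31 and 33 summits in the Antennapedia complex in replicates 1 and 3. They gave 20 and 24 in the bithorax complex. In the whole pooled list of 30000 peaks the complexes held 111 and 92 summits, or 28.3 and 28.79 per 100 kb, against 22.41 over the arms. Of the 54 IDR summits, 10 (18.52%) were in pairs within 250 bp, against 14.19% of all IDR summits. With such summits counted once, a setting added after seeing the data, the Antennapedia complex held 27 and the bithorax complex 22. No test was made of the densities.

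The signal of the summits was close to that of the whole list. Peak signal is the authors' value, whose scale the sources do not state, and it serves to rank peaks within a list. It ran from 143.4 to 2535.5 with a median of 268.9 for the 54 summits, against a median of 268.4 for all 6154. Of the 54 summits, 27 stood within the first 3077 ranks, 16 in the Antennapedia and 11 in the bithorax complex. Only 6 (11.1%) were among the first 1000, against 16.2% of the list by construction. Of these 6, 5 lay in the Antennapedia complex and 1 in the bithorax complex.

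**Figure D1:**
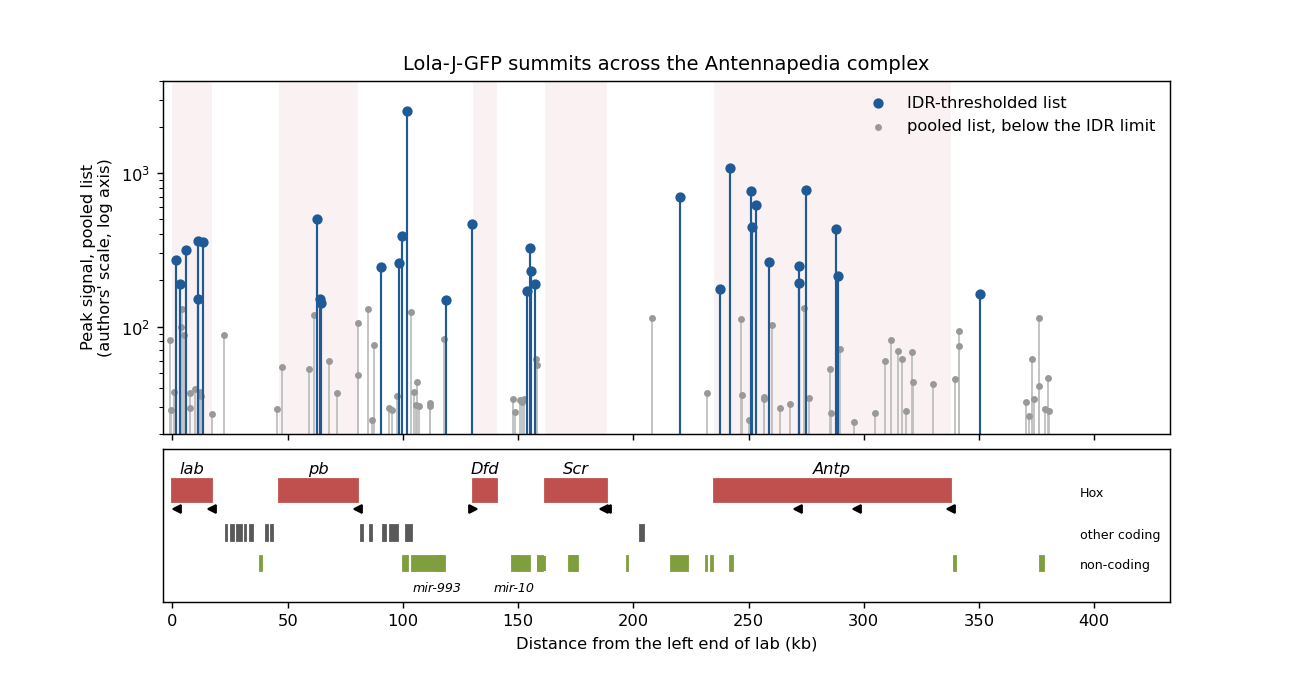
Peak signal in the pooled list (log axis) against distance in kb from the left end of lab, with IDR summits in blue and weaker pooled summits in grey; red boxes are Hox genes, arrowheads their coding TSSs pointing in the direction of transcription, and lower boxes other genes. Blue summits fill the lab intron and one side of Antp, reach 2535.5 at Ama between pb and Dfd, and are absent from Dfd and Scr themselves.

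lab, the gene at the head end of the Antennapedia complex, had the densest run of summits of any tract. Its span of 17.2 kb held 6 IDR summits, 34.96 per 100 kb, and all 6 lay within intron 1 of its longest transcript (FBtr0081696, 14.1 kb). The strongest had a signal of 364.3 and stood at rank 2134 of the pooled list, at rank 1679 in replicate 1 and at rank 3203 in replicate 3. The weakest stood at rank 5686. All 6 were found in the 6154 strongest peaks of both replicates. The summit nearest to a TSS, at rank 3013, lay 308 bp inside the shorter lab transcript, whose start site is within the long intron. No IDR summit lay closer than 3844 bp to the outer TSS. The pooled list has a summit 124 bp upstream of that outer TSS, at rank 27261, replicate 1 has one at -59 bp from it at rank 23922, and in replicate 3 the nearest is 3181 bp inside the gene.

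pb, which specifies mouthparts, had 3 IDR summits in 34.3 kb, all in intron 3 of its longest transcript (15.3 kb). The strongest reached 501.7 (rank 1396, and ranks 1347 and 1614 in replicates 1 and 3). The other 2 lay 215 bp apart at ranks 5732 and 6021 and were among the strongest peaks of replicate 1 but not of replicate 3. The nearest IDR summit to the pb TSS was 9863 bp upstream, and a pooled summit at rank 16278 lay 123 bp inside the gene. A stronger pooled summit, at rank 8087, lay 323 bp inside and was matched at ranks 8317 and 9974 in replicates 1 and 3. The 29.2 kb from lab to pb, which holds a cluster of cuticle genes (Edg84A and the Ccp84A genes), had no IDR summit and 3 pooled ones, the best at rank 9566.

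The tract from pb to Dfd held 6 IDR summits in 49.8 kb, and with them the strongest of either complex. This peak, with a signal of 2535.5, stood at rank 39 of the pooled list, at rank 36 in replicate 1 (signal 1297.3) and at rank 45 in replicate 3 (signal 1264.6). It lay 330 bp upstream of the inner TSS of Ama, which encodes Amalgam, a protein of the immunoglobulin superfamily, and inside the opposing transcript lncRNA:CR45593, 404 bp from its start. The printed window holds GCCAT and a run of A. A second summit, at rank 3181, lay 184 bp upstream of bcd, the maternal gene for the anterior determinant Bicoid. A further one at rank 1973 lay 1525 bp upstream of bcd, and one at rank 3404 lay 2268 bp downstream of the start of zen, past the end of that gene, which acts in dorsal patterning. zen2 had no IDR summit within 2 kb. These genes derive from Hox genes or sit among them but are not homeotic. Of the 15 other coding genes of the complex, 2 had a summit within 500 bp of a coding TSS (bcd and Ama), where 22.9% of all coding genes had one. A summit in the gene or within 2 kb was found for 4 of the 15, against 38.2% of all coding genes.

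Dfd, a head gene, was marked at its start and nowhere inside. A summit of signal 466.4 lay 457 bp upstream of its single coding TSS, at rank 1557, with ranks of 1615 in replicate 1 and 1522 in replicate 3. Replicate 1 has a further, weaker summit at -241 bp, at rank 6519, while the nearest in replicate 3 is at -458 bp. The 10.6 kb gene had no summit inside it in the IDR list, in the whole pooled list or in either replicate's full list. The printed window has 2 runs of A. The 20.7 kb from Dfd to Scr held 4 IDR summits, 19.33 per 100 kb, of which the strongest stood at rank 2428. This one lay 375 bp upstream of lncRNA:CR42651, the transcript that holds mir-10 within its span, and the nearest summit to the mir-10 hairpin itself was 5550 bp away.

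Scr, which specifies labial and first thoracic identity, had no IDR summit. No summit of the IDR list or the whole pooled list lay in its 26.9 kb, none of replicate 1 and 1 of 30000 in replicate 3. The IDR summits on either side were 63 kb apart, at 6818778 and 6881790, with 3 pooled summits between them. Of all gaps between neighbouring IDR summits on the arms, 7.01% were at least as long, and the median gap was 6.68 kb. The nearest pooled summit to a Scr TSS was 19526 bp upstream, at rank 7549. The pair-rule gene ftz, in the same tract, had no IDR summit within 2 kb. The right side of the gap is a strong peak of signal 700.4 (rank 846, 843 in replicate 1 and 861 in replicate 3) in lncRNA:CR44931, the only IDR summit in the 46.3 kb from Scr to Antp.

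Antp, which specifies thoracic identity, had the most summits of the 8 genes. Its 103.0 kb held 11 IDR summits, of which 9 lay in intron 2 (60.1 kb) and 2 in intron 6 (10 kb) of transcript FBtr0081647. The strongest, in intron 6, had a signal of 1076.6 and stood at rank 388, with ranks of 426 and 365 in replicates 1 and 3. In intron 2 the strongest 3 had signals of 778.9, 763.6 and 622.6 at ranks 725, 750 and 1033. The signal was uneven along the gene, since the last summit, at 6950430, was followed by 61.2 kb with no IDR summit and 14 weaker pooled ones. This gap runs past the gene, to a summit 12446 bp upstream of the outer Antp TSS. Gaps at least this long made up 7.3% of all. That stretch takes in 2 of the 3 Antp start sites. The remaining TSS, at 6932840, had a summit 367 bp upstream (signal 249.3, rank 3322) and a neighbour 201 bp further out (rank 4455). The replicates did not place this pair alike. Replicate 1 has a single peak at -484 bp from the TSS, at rank 2443, which matched the outer summit within 100 bp, while replicate 3 matched the inner one at rank 5258 and has the outer one at rank 21671. The annotated coding gene CG46458 overlaps Antp over 62.1 kb and shares all 11 of these summits.

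Summit counts per gene were set beside those of coding genes in the same class, with all coding genes cut into 10 classes by span. This is only a rough match for length, since lab (17.2 kb) and Antp (103.0 kb) fall in the same wide class. Among the longest class (14.6 to 1965.9 kb, 1394 genes), 60.5% had a summit in the gene or within 2 kb, and the median was 1. As many summits as the 11 of Antp were found in 1.9% of these genes, and as many as the 6 of lab in 8.8%. As many as the 3 of pb and of Ubx were found in 27.8%, and as many as the 2 of Abd-B in 41.5%. Dfd is in the next class (6.5 to 14.6 kb), where 53.5% of genes had at least its 1 summit.

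**Figure D2:**
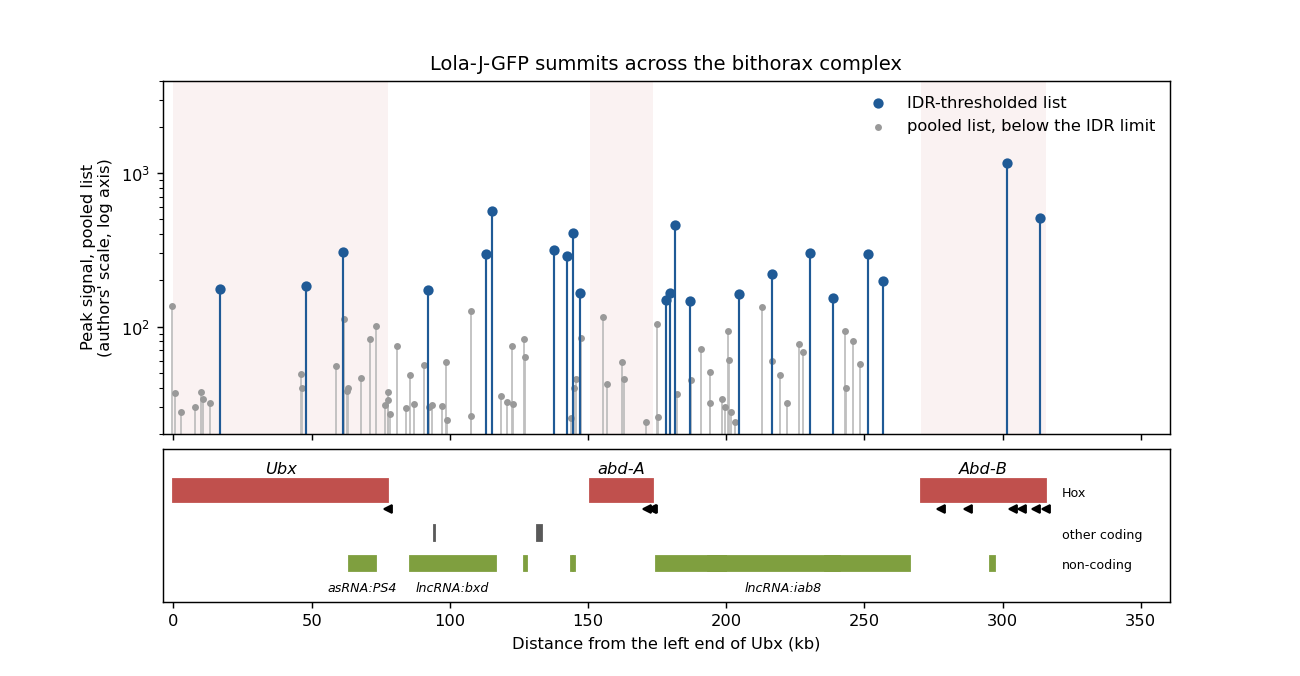
Peak signal in the pooled list (log axis) against distance in kb from the left end of Ubx, drawn as for the Antennapedia complex. Most blue summits stand between the genes, while abd-A has none and Abd-B has 2, the taller at 1172.

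Ubx, which sets posterior thoracic identity, had 3 IDR summits in 77.8 kb. This is 3.86 per 100 kb, against 4.60 over the arms, while its 21 summits in the whole pooled list are 26.99 per 100 kb, against 22.41. The IDR summits had signals of 304.5, 185 and 177.2 at ranks 2664, 4643 and 4871. The strongest lay in intron 2 (14.6 kb) of transcript FBtr0083347, 16315 bp inside the gene, and the other 2 in intron 3 (51.5 kb), where the abx/bx regulatory DNA of Ubx lies. The weakest stood at rank 9264 in replicate 1 and at rank 3214 in replicate 3. No IDR summit came closer to the Ubx TSS than 14339 bp. The pooled list has a summit 34 bp inside it, at rank 22710, replicate 1 has one 74 bp inside at rank 19050, and replicate 3 has none within 3 kb.

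The 72.8 kb upstream of Ubx, as far as abd-A, held 7 IDR summits, 9.62 per 100 kb. Of these, 3 lay within the 31.07 kb bxd transcript, with the strongest (signal 567.7, rank 1180, ranks 1403 and 1094 in replicates 1 and 3) 1401 bp from a start of that transcript. The printed window has none of the 4 motifs. The other 4 stood nearer to abd-A, between 24214 and 33646 bp downstream of its closest start. One of these, at rank 1862, lay 75 bp upstream of the transcript lncRNA:TS16. Glut3, a coding gene in the tract, had no IDR summit within 2 kb.

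abd-A, which sets abdominal identity, had no IDR summit in its 22.8 kb. Its span held 5 summits in the whole pooled list, the best at rank 7421 with a signal of 115.3. The nearest IDR summit to any of its 3 TSSs was 4798 bp upstream, at rank 5788. Replicate 1 placed 1 of its 6154 strongest peaks inside the gene (rank 5381) and replicate 3 placed none.

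The iab DNA between abd-A and Abd-B, 97.2 kb, held 10 IDR summits, 10.29 per 100 kb, spread through its length at signals of 146.6 to 462.4. The strongest stood at rank 1572 (1616 in replicate 1 and 1533 in replicate 3), 7970 bp upstream of abd-A, and its window holds runs of A on both strands. All 10 fell within the span of lncRNA:iab8, a 92.12 kb transcript, and the nearest to the shared hairpin locus of mir-iab-4 and mir-iab-8 was 5041 bp from it. In replicate 1 the strongest peaks held 6 summits of the tract, in replicate 3 they held 12. This tract gave the greatest difference in count between the replicates of any tract in either complex.

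Abd-B, which acts in the last abdominal segments, had just 2 summits in 45.0 kb, and these were strong. One had a signal of 1172 and stood at rank 325 (283 in replicate 1 and 369 in replicate 3), 2013 bp inside the transcript that starts at 16960281. The other had a signal of 508 and stood at rank 1370, 1419 bp upstream of the start at 16968574. Both lay in intron 1 of transcript FBtr0083385 (28.5 kb). The printed window of the stronger has a run of A and GAGAG, read on the minus strand. The whole pooled list adds no other summit in the gene. None of the 6 Abd-B start sites had an IDR or pooled summit within 1 kb. Replicate 1 has a summit 34 bp inside the start at 16934242, at rank 22064 of its own list. From the last iab summit to the first in Abd-B was 44.9 kb with no pooled summit inside. Gaps at least this long made up 10.7% of all.

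**Figure D3:**
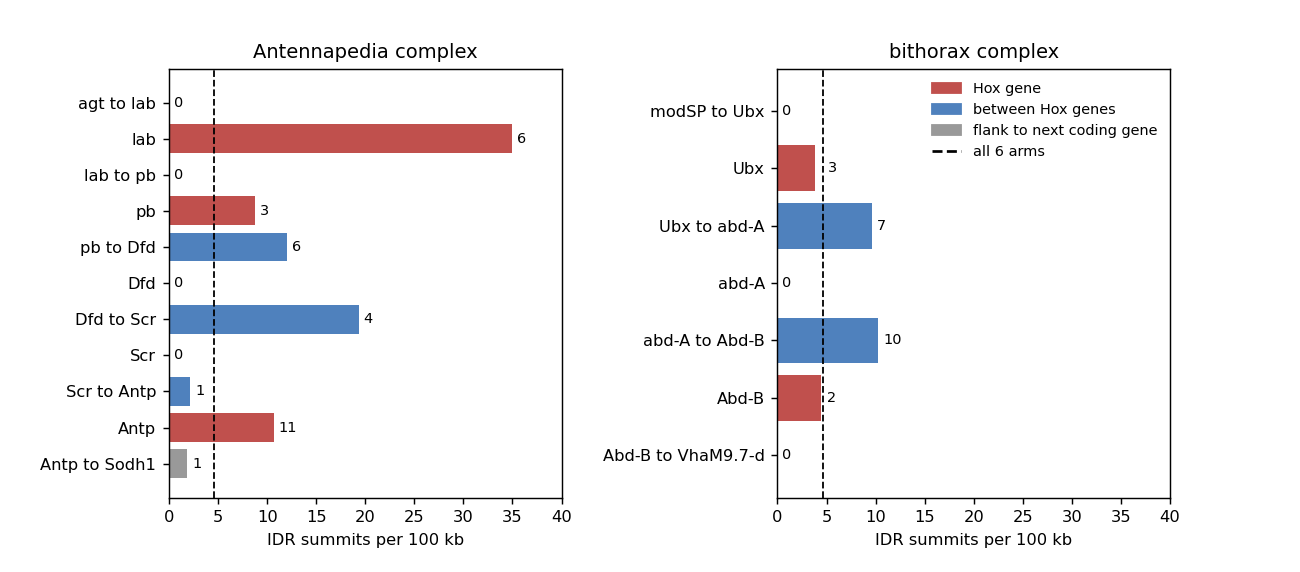
IDR summits per 100 kb in each tract, with the count at the end of each bar and the dashed line at the 4.60 of the 6 arms. Bars for lab, pb, pb to Dfd, Dfd to Scr, Antp and the tracts on both sides of abd-A exceed the line, while the Ubx and Abd-B genes lie just below it and Dfd, Scr and abd-A are at 0.

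The complexes differed in where the summits stood. In the bithorax complex the 3 Hox genes held 5 summits in 145.6 kb (3.43 per 100 kb) and the DNA between them 17 in 170 kb (10 per 100 kb). In the Antennapedia complex the 5 genes held 20 in 192 kb (10.42 per 100 kb) and the DNA between them 11 in 146 kb (7.53 per 100 kb). These counts carry no test, and each complex is a single region.

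Placed by class, few of the summits were at promoters, defined as 500 bp on each side of a coding TSS. Of the 54, 5 (9.26%, Wilson 95% interval 4.02 to 19.91%, covering counting error only) were at a coding promoter, against 40.4% of all IDR summits. With a window of 250 bp the share was 1.85% (1 of 54), against 31.3% of all IDR summits. At 500 bp all 5 were in the Antennapedia complex, at Ama, Dfd, lab, bcd and Antp. Of the rest, 31 (57.41%) lay in introns, 11 (20.37%) in intergenic DNA and 7 (12.96%) in other transcribed DNA, against 35.46%, 20.64% and 2.32% of all IDR summits. None lay in a coding exon or UTR outside promoters. The part played in this share by the spacing of coding TSSs was not tested. The 31 include 8 that are intronic only to MSAmiP, a short coding gene annotated across 65.2 kb of the iab DNA. With MSAmiP and CG46458 taken as non-coding, a setting chosen after the data had been seen, 23 were intronic and 15 in other transcribed DNA.

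For the Hox genes themselves, 3 of 8 (lab, Dfd and Antp) had an IDR summit within 500 bp of a coding TSS, and 22.9% of all coding genes had one. In the gene or within 2 kb of it, 6 of 8 had a summit, all but Scr and abd-A, against 38.2% of all coding genes. With a flank of 5 kb all 8 had a summit, but the share over all coding genes at that flank is not given here. In the whole pooled list 6 of 8 had a summit within 500 bp of a coding TSS, against 49.9%. There 7 of 8 had one in the gene or within 2 kb, against 64.7%. These counts carry no test, and the gene counts do not allow for gene length. Of the 19 coding TSSs of the 8 genes, 3 had an IDR summit within 500 bp and 0 within 250 bp. In the whole pooled list 7 and 3 did, in that of replicate 1, 7 and 4, and in that of replicate 3, 5 and 2. No share over all coding TSSs is available here to set beside these start-site counts.

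Replicate support was close to that of the whole list. Of the 54 summits, 39 (72.22%, Wilson 95% interval 59.11 to 82.38%) were matched within 100 bp by one of the 6154 strongest peaks in each replicate, against 71.3% of all IDR summits. The Antennapedia complex had 24 of 32 and the bithorax complex 15 of 22. The IDR list is exactly the 6154 strongest peaks of the pooled list, so it is called from the same reads as both replicates and presence in each is partly fixed. Of the summits found in 1 of the 2, 6 were in replicate 1 and 9 in replicate 3, and 0 were in neither. Over all 6154 IDR summits, 764 were found in replicate 1 alone, 855 in replicate 3 alone and 146 in neither. In the bithorax complex 1 was found in replicate 1 alone and 6 in replicate 3 alone, and 5 of the 6 lay between abd-A and Abd-B. In the full lists 52 of 54 matched in both. Over the matched summits the signals of replicates 1 and 3 had a Spearman correlation of 0.74, a description across positions that share libraries (n = 52), against 0.77 over all IDR summits (n = 5704).

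**Figure D4:**
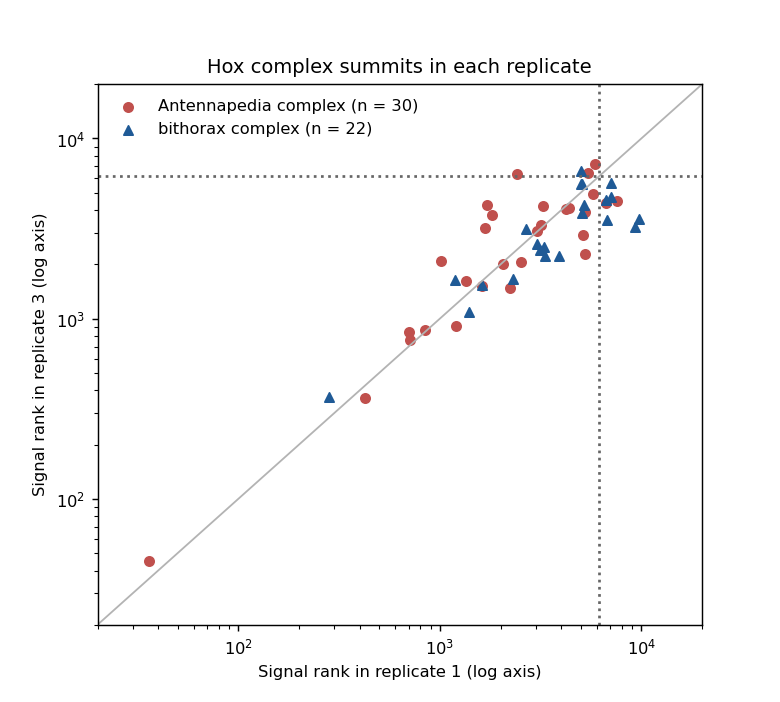
Signal rank in replicate 3 against rank in replicate 1 (log axes) for the 52 summits matched in both full lists, with the line of equal rank and dotted lines at 6154. One of them, an Antp summit at rank 2443 in replicate 1 and 21671 in replicate 3, falls outside the axes and is not drawn. The strongest peaks lie on the line and the weaker ones scatter about it. The points to the right of the dotted vertical line are mostly triangles of the bithorax complex, with some of the Antennapedia complex.

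Each replicate also had peaks among its 6154 strongest with no counterpart in the IDR list. Replicate 1 had 6 in the complexes (2 and 4) and replicate 3 had 9 (6 and 3), matched within 100 bp in the other replicate's full list for 3 and 7 of them. The share of such peaks among all 6154 strongest of each replicate is not given here, so whether these counts are usual is unknown. The strongest in replicate 3, at rank 3853 in an Abd-B intron, had no match in replicate 1 or in the pooled list. Below the IDR limit the pooled list has 149 further summits in the complexes, of which 53 (35.57%) were matched in both replicates, against 33.61% of all such pooled peaks. At ranks 6155 to 12308 it was 33 of 40 (82.5%, against 72.73%), and at ranks 20001 to 30000 it was 1 of 71 (1.41%, against 7.12%). The pooled summits nearest to the start sites of Ubx (rank 22710) and abd-A (rank 29870), and the one at the outer lab start, are in this last class.

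Genes that work with Hox proteins or answer to them were placed in the same way. Of 3 cofactor genes, hth, which encodes a TALE homeodomain partner, had 13 summits in 132 kb with the best at rank 559. Its partner exd had 1 promoter summit at rank 5189, and tsh had 0. Of 8 genes known as Hox targets, 4 had a summit in the gene or within 2 kb, namely dpp (2), wg (1), fkh (1, at its promoter) and ct (3), while Dll, ems, rpr and salm had none. The shares over the 13945 coding genes were 38.2% for gene and flank and 22.9% for promoters, and no test was made of these small lists. These lists were taken from background knowledge, with the results of an earlier look at these data known.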

How the data were processed

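Lola-J-GFP ChIP-seq peaks of 2 samples in 1 group were taken on dm6. The submitters' file records give peak calls for each replicate and for the pooled reads, each against a control, and an IDR-thresholded list made from these. The aligner and peak caller are not given in the sources used here. Read depth is unknown. The signal values deposited by the authors, on a scale not given in the sources used here, ranked the peaks within each list. The −log10 q-values deposited by the authors were 4.33 for every IDR peak and ranked nothing. Each peak was placed at its deposited summit offset. Gene models came from Ensembl release 115 (BDGP6.54, the dm6 sequence) and sequence from the NCBI copy of that assembly, and coordinates count from 1.

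Summits were placed in 7 classes in fixed order: first promoter (500 bp on each side of a coding TSS), then UTR of either end, then coding exon, intron, non-coding gene and last intergenic. Distances are to the nearest summit, and replicates were matched within 100 bp. Python 3.11.15, pandas 2.3.3, NumPy 2.4.6, SciPy 1.17.1 and matplotlib 3.10.9 were used, and placement was checked on positions with known answers. The 8 Hox genes were named in full, other coding genes of the complexes where their TSS was nearest to a summit, and cofactor, target and non-coding genes from fixed lists; genes without a summit that are named beside these as empty were added after their values were seen. Members and lists were chosen with earlier results of these data known. Alternatives changed the peak threshold, replicate, promoter window, flank and match rule.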

Additional observations from a re-analysis of the deposited data

How the results depend on the processing

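Counts follow the peak threshold by construction. The 3077 strongest IDR peaks left 16 summits in the Antennapedia and 11 in the bithorax complex, the pooled list to 2 times the IDR length gave 54 and 40, and the whole pooled list 111 and 92. Either replicate alone gave 31 to 33 and 20 to 24. Hox genes with a promoter summit numbered 6 of 8 in the whole pooled list and 0 with a window of 250 bp, where the promoter share fell to 1.85%; the 3 Hox promoter summits lie between 308 and 457 bp from their start sites. The rank of the strongest pb summit was 1347 to 1614 when either replicate was left out, a move larger than the SD of the 2 replicates' ranks. The other 45 values moved by at most 1.5 times for counts, stayed within the Wilson interval for shares, or moved by less than that SD for ranks. These limits are wide. The SD for ranks comes from the same 2 ranks that it judges, so it does not measure how far a rank moved. The strongest lab summit ranged from 1679 to 3203, Hox genes with a locus summit from 5 (gene span alone) to 8 (5 kb flank), and replicate support from 30 (50 bp) to 52 of 54 (full lists), outside the counting interval of the main share. Counting summits within 250 bp once, a setting added after seeing the data, gave 27 and 22. No paired analysis was possible because there is 1 group. Read depth is unknown, so a missing peak, as at Scr, says that none was listed and not that no Lola was bound.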
